A study of Sus scrofa with 8 samples.

Results

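The core circadian clock genes were taken by name from a table of left ventricular gene expression in gene-edited and wild-type (WT) pigs. Of 9 clock genes listed by name, 8 were measured, out of 14718 genes in all, namely CLOCK, BMAL1 (also called ARNTL), PER1, PER2, CRY1, CRY2, NR1D1 and NR1D2. PER3 was not analysed here. The study, titled as a pig model of long QT syndrome, compared 4 mutant and 4 WT pigs by sequencing of polyadenylated RNA from ventricular tissue. Of the mutant libraries, 3 carry a label naming a KCNH2 mutation and 1, mutant replicate 4, carries a label naming KCNH3, although the series design names KCNH2 alone. The labels give no allele, sex, age, litter or time of tissue collection for any animal. WT pigs are labelled only as wild type, and the tissue of every library is labelled left ventricle. Each library comes from a separately numbered pig, so the p-values reflect the spread among these 8 animals. The reads of mutant replicates 3 and 4 differed least of any pair within a group. Their chi-square per gene was 12.6, against 53.4 to 275 for the other mutant pairs and 163 to 1270 for the WT pairs. The causes were not tested.

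The molecular clock is a feedback loop that runs in most cells of the body, cardiomyocytes included. CLOCK and BMAL1 form a heterodimer that binds E-box elements and activates PER, CRY and NR1D genes. PER and CRY proteins then enter the nucleus and inhibit CLOCK and BMAL1, while the REV-ERB nuclear receptors encoded by NR1D1 and NR1D2 repress BMAL1. In rodent heart this loop makes BMAL1 transcripts peak at about the opposite time of day to those of NR1D1 and the PER genes. Since the labels give no collection time, a difference in the hour of sampling and a difference in genotype cannot be told apart for any gene described here.

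Values are normalized counts, that is, reads of a gene divided by 1 size factor per library. They depend on transcript length, so levels are compared between libraries and not between genes. Whole reads could be recovered, and libraries held 15.9 to 22.4 M reads. Mitochondrially encoded mRNAs made up 15.9% to 27.5% of the reads of mutant libraries and 31.7% to 87.9% of those of WT libraries (p = 0.0286 by an exact permutation test, two-sided, the lowest value possible with 70 assignments). Nuclear genes thus had 12.7 to 16.2 M reads in mutant libraries and 2.53 to 12.9 M in WT libraries, with the fewest in WT replicate 3, where 1 read was worth 4.84 normalized counts. The share of mitochondrial reads moved with the groups for every gene below, and its part in the results was not tested. All 7 cardiomyocyte markers examined were present, with summed normalized counts of 652268 to 716842 in mutant libraries and 431552 to 566592 in WT libraries. Of these 7, 5 were higher and 2 lower on average in mutant libraries. Mutant libraries were all above WT libraries for 2 of the 7, against 6.17% of all genes. The sum leans on MYH7 and ACTC1, with means of 192301 and 120799 in the authors' deposited table. Their log2 fold changes there are 1.00 ± 0.23 and 0.79 ± 0.89 (SE). The 2 lower ones, TNNI3 and TNNT2, have -0.65 and -0.31 there. Sums of the endothelial, fibroblast, smooth muscle, macrophage, neutrophil, lymphocyte, erythroid and atrial markers overlapped between groups. In bulk tissue, fewer cells of a type and less RNA per cell cannot be told apart.

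Among the clock genes, CLOCK was higher and CRY1 lower in every mutant library than in any WT library, BMAL1 and PER1 had lower means in mutant libraries with overlapping groups, and PER2, CRY2, NR1D1 and NR1D2 had overlapping groups and smaller differences. None of the 8 passed limma with Benjamini-Hochberg adjustment over 11660 genes, in which 0.0% of genes passed (adjusted p = 0.228 to 0.868 for the 8). At an unadjusted p under 0.05, 1 clock gene was higher and 2 were lower in mutant libraries, against 13.9% of all genes in either direction, 7.06% higher and 6.8% lower. Groups did not overlap for 2 of the 8, against 11.4% of all genes. All 8 clock genes passed the filter on low values, and their median log2 difference was -0.05, against 0.12 over all genes tested. In edgeR 0 of 8 passed, as did 0.0% of genes, and 1 higher and 3 lower clock genes had an unadjusted p under 0.05, against 14.6% of all genes, 5.83% higher and 8.73% lower. In DESeq2, which called 4.56% of genes, 1.32% higher and 3.24% lower, 1 of 8 passed. The authors' deposited table calls 4.54% of genes, 3.23% lower and 1.32% higher, and among the clock genes it calls CRY1 alone.

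**Figure D1:**
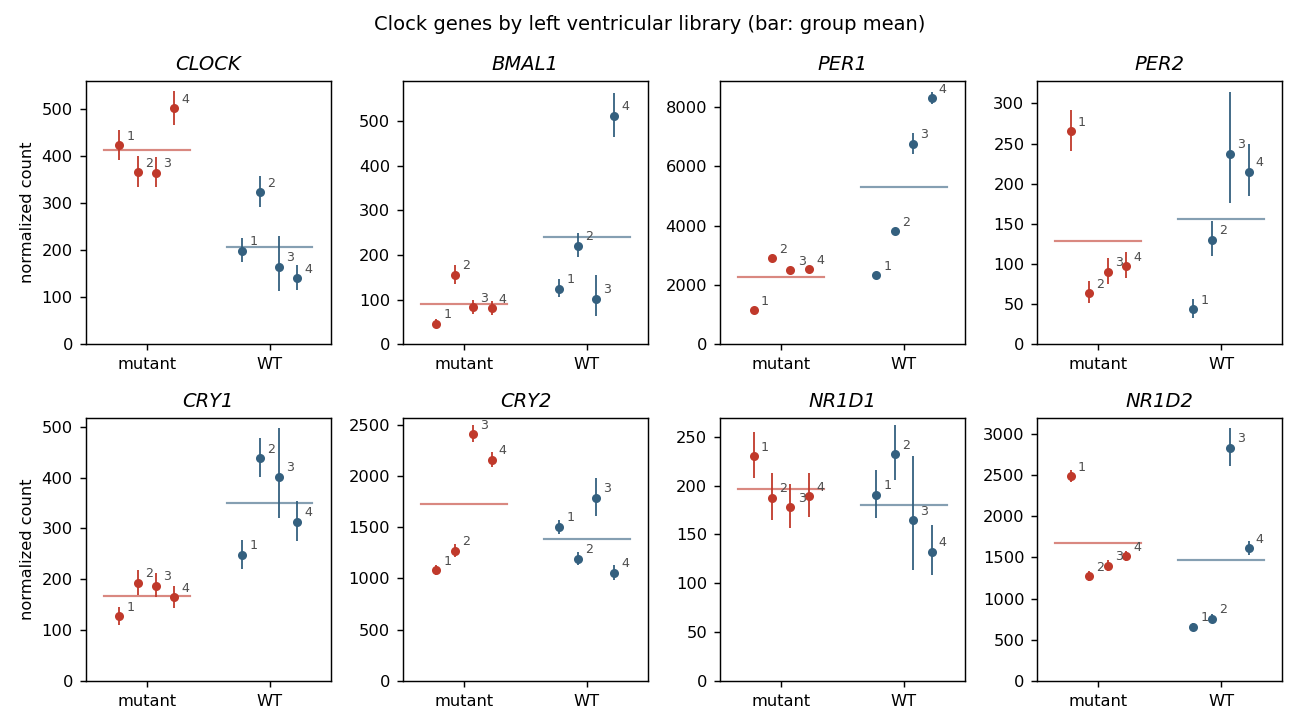
Normalized counts (vertical axes, linear from 0) of the 8 clock genes in each library, mutant left and WT right, numbered by replicate, with exact Poisson 95% intervals of the reads as vertical lines and group means as horizontal bars. CLOCK lies at 365 to 501 in mutant and 141 to 323 in WT libraries, CRY1 at 128 to 193 in mutant and 248 to 438 in WT libraries, and the groups overlap in the other 6 panels.

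CLOCK and BMAL1, the partners of the activating heterodimer, had differences in opposite directions. CLOCK, a basic helix-loop-helix transcription factor, had 423, 366, 365 and 501 normalized counts in mutant replicates 1 to 4, against 199, 323, 165 and 141 in WT replicates 1 to 4. Every mutant library was above every WT library, and the closest pair was mutant replicate 3 and WT replicate 2, whose counting intervals overlapped (334 to 398 in mutant replicate 3 and 291 to 358 in WT replicate 2). The means were 414 ± 64.4 in mutant and 207 ± 81.1 in WT libraries (SD, n = 4), a 2.0-fold ratio, and the limma estimate was 1.06 ± 0.30 on the log2 scale (SE; adjusted p = 0.228). CLOCK has in the authors' deposited table a log2 fold change of 0.99 and an adjusted p of 0.0643. DESeq2 called CLOCK when WT replicate 2, the highest WT library, was left out (adjusted p = 0.00164), and with all 8 libraries or another library left out it did not (adjusted p = 0.0643 to 0.332).

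BMAL1, the partner of CLOCK, had 45.8, 156, 82.9 and 80.1 normalized counts in mutant replicates 1 to 4, against 125, 221, 102 and 512 in WT replicates 1 to 4. Mutant replicate 2 lay within the WT range, and the other 3 mutant libraries lay below it. WT replicate 4 held more than any other library. The value of WT replicate 3 rests on 21 reads (exact Poisson 95% interval 13 to 32.1). The means were 91.1 ± 46.2 in mutant and 239.9 ± 189 in WT libraries (SD, n = 4), and limma put the log2 difference at -1.22 ± 0.57 (SE; adjusted p = 0.371). Leaving out WT replicate 4 made it -0.76. BMAL1 has in the authors' deposited table a log2 fold change of -1.41 with an adjusted p of 0.154. With any 1 library left out the limma difference of CLOCK stayed between 0.90 and 1.3, and that of CRY1 between -1.19 and -0.91.

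**Figure D2:**
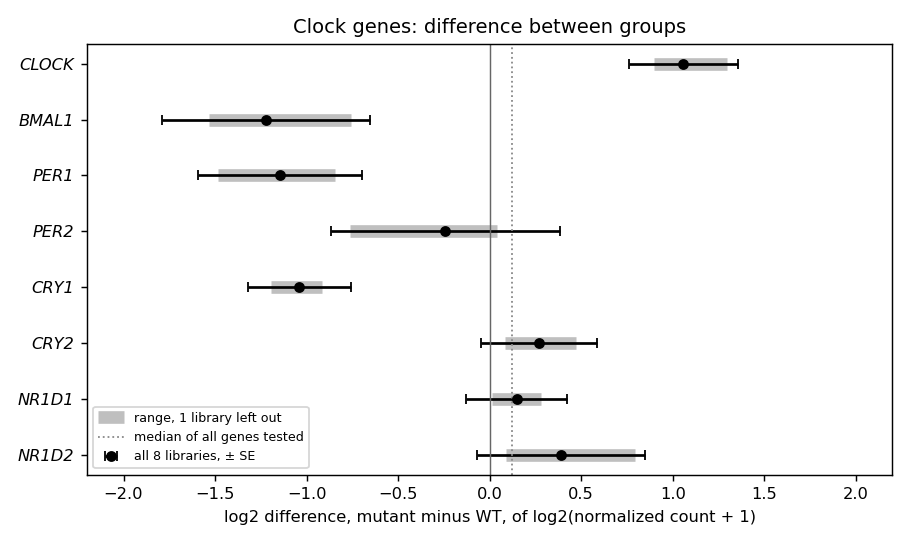
Log2 difference between mutant and WT libraries of log2(normalized count + 1) for each clock gene (horizontal axis), with points and error bars for the limma estimate from all 8 libraries ± SE, grey bars for the range when each library was left out in turn, and a dotted line at the median of all genes tested, 0.12. CLOCK stands at 1.06, BMAL1, PER1 and CRY1 between -1.22 and -1.04, and the grey bar of PER2 crosses 0.

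PER1 and PER2, which encode the period repressors, had the same order in WT libraries except for replicates 3 and 4, and differed most in mutant replicate 1. PER1, whose transcription is also induced acutely by cyclic AMP signalling and by glucocorticoids, had 1147, 2895, 2492 and 2529 normalized counts in mutant replicates 1 to 4, against 2333, 3804, 6768 and 8311 in WT replicates 1 to 4. Only WT replicate 1 lay within the mutant range, and the other 3 WT libraries lay above it. The means were 2266 ± 768 in mutant and 5304 ± 2724 in WT libraries (SD, n = 4), and in limma the difference on the log2 scale was -1.14 ± 0.45 (SE; adjusted p = 0.315). In the authors' deposited table PER1 has -1.23 with an adjusted p of 0.102. DESeq2 called PER1 when WT replicate 1 was left out (-1.48, adjusted p = 0.0148). The WT libraries with the highest PER1, replicates 3 and 4, were also those with the highest mitochondrial shares, and without both the limma difference was -0.48. PER2 had 265, 63.8, 90.1 and 97.3 normalized counts in mutant replicates 1 to 4, against 43.7, 130.4, 237 and 215 in WT replicates 1 to 4. The groups overlapped, with WT replicates 2, 3 and 4 above mutant replicates 2, 3 and 4, mutant replicate 1 above all and WT replicate 1 below all. The log2 difference was -0.24 ± 0.62 (SE; limma adjusted p = 0.868), and it was 0.043 without WT replicate 3 and 0.019 without mutant replicate 2. In mutant replicate 1 PER2 was thus at its highest and PER1 at its lowest of all 8 libraries.

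Genes outside the clock that share the acute inducers of PER1 were also lower in mutant libraries. Of 8 measured immediate early or CREB-pathway genes all 8 were lower, with a median log2 difference of -1.77, and of 7 measured glucocorticoid-responsive genes 6 were lower, with a median of -0.96. Summed normalized counts were 3631 to 5477 in mutant and 9239 to 20370.2 in WT libraries for the first list, and 6332 to 10402 in mutant and 10875 to 24152 in WT libraries for the second. Both lists were chosen with earlier results of these data known, so their shares are a description and not a test. None of these 15 genes passed limma, and 12 had an unadjusted p under 0.05, all lower, against 6.8% of all genes. Mutant libraries were all below WT libraries for 4 genes of the first list and 2 of the second, against 5.22% of all genes. The authors' deposited table calls 6 of the first list and 2 of the second, all lower, against 3.23% of all genes. The part of this difference in that of PER1 was not tested.

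CRY1 and CRY2 encode the cryptochromes that complete the repressing complex, and of these CRY1 separated the groups and CRY2 did not. CRY1 had 128, 193, 187 and 164 normalized counts in mutant replicates 1 to 4, against 248, 438, 402 and 313 in WT replicates 1 to 4. Every mutant library was below every WT library, and the counting intervals of the closest libraries did not meet (170 to 218 in mutant replicate 2 and 221 to 277 in WT replicate 1). The means were 168 ± 29.6 in mutant and 350.2 ± 86.1 in WT libraries (SD, n = 4), a ratio of 0.480, and limma gave a difference of -1.04 ± 0.28 on the log2 scale (SE; adjusted p = 0.228). CRY1 fell in the authors' deposited table, with a log2 fold change of -1.05 and an adjusted p of 0.0189, and DESeq2 on the recovered reads gave the same difference and an adjusted p of 0.0188. That call held in 3 of 8 fits with a library left out and was lost in 5, without WT replicate 2 (0.0773) or 3 (0.0533) and without mutant replicate 1 (0.0676), 3 (0.0905) or 4 (0.154). Without WT replicates 3 and 4, which had the highest mitochondrial shares, its adjusted p in DESeq2 was 0.0714, and without the mitochondrially encoded genes it was 0.0185.

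CRY2 had 1080.0, 1272, 2410.3 and 2161 normalized counts in mutant replicates 1 to 4, against 1504, 1194, 1788 and 1054 in WT replicates 1 to 4. Mutant replicates 3 and 4 were above every WT library and the other mutant libraries were within the WT range. The log2 difference was 0.27 ± 0.32 (SE; limma adjusted p = 0.696), and it was 0.083 without mutant replicate 3. CRY2 and CRY1 had a within-library log2 ratio of 2.71 to 3.71 in mutant and 1.44 to 2.60 in WT libraries, and CRY1 alone also separated the groups.

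NR1D1 and NR1D2 encode REV-ERBα and REV-ERBβ, haem-binding nuclear receptors that repress BMAL1, and neither separated the groups. NR1D1 had 230.3, 188, 178 and 189 normalized counts in mutant replicates 1 to 4, against 191, 232, 165 and 132 in WT replicates 1 to 4. Its largest value was 1.29 times its smallest within the mutant group and 1.76 times within the WT group, the narrowest range of the 8 clock genes in the mutant group and the next to narrowest, after CRY2, in the WT group. The log2 difference was 0.15 ± 0.28 (SE; limma adjusted p = 0.813), and with array quality weights it was -0.094. NR1D2 had 2489, 1274, 1401 and 1513 normalized counts in mutant replicates 1 to 4, against 659.6, 756, 2834 and 1612 in WT replicates 1 to 4. Mutant libraries all lay inside the WT range, whose ends were WT replicates 1 and 3. The difference was 0.39 ± 0.46 (SE; limma adjusted p = 0.697). Leaving out WT replicate 1 gave 0.091 and leaving out WT replicate 3 gave 0.79. Without WT replicates 3 and 4 both, DESeq2 called NR1D2 higher (1.22, adjusted p = 0.0175).

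Some clock genes share genomic span with a neighbour, and strand-specific counting is not stated. In the RefSeq annotation of pig assembly Sscrofa11.1 the span of NR1D1 overlaps THRA, that of CLOCK overlaps TMEM165, and that of CRY1 overlaps MTERF2 and TMEM263. THRA, which encodes a thyroid hormone receptor, had a log2 difference of 0.18 ± 0.40 (SE). Those of TMEM165, MTERF2 and TMEM263 were 0.34 ± 0.37, 0.45 ± 0.45 and 0.35 ± 0.29 (SE). None of these neighbours passed limma, and their groups overlapped. The span of CRY1 also overlaps the pseudogenes LOC110260831 and LOC100521268, which were not measured. The annotation used for counting is not known, and its gene spans may differ from these. Only spans were compared, so whether exons overlap, and on which strands, was not examined. Reads of any overlapping exons could not be told apart, and the values of NR1D1, CLOCK and CRY1 are uncertain to that extent.

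**Figure D3:**
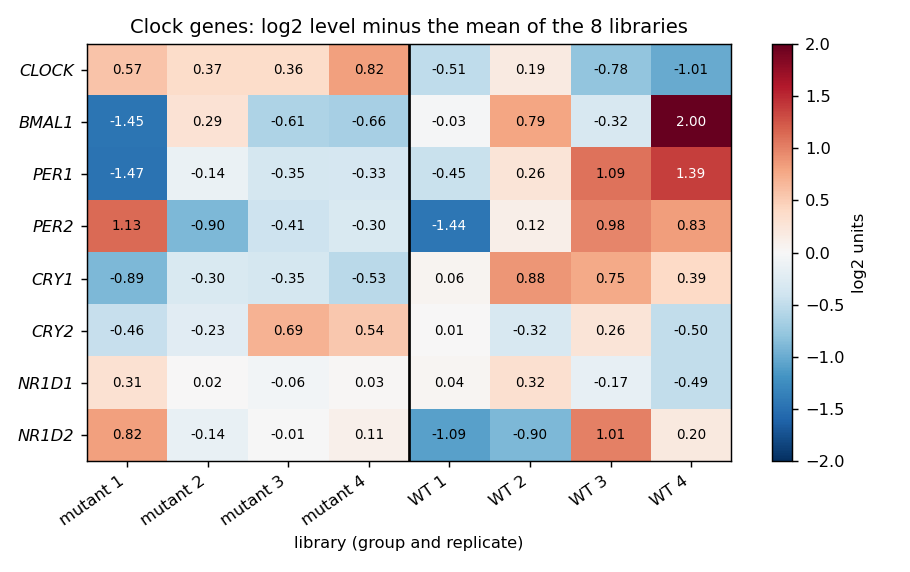
Heat map of log2(normalized count + 1) of each clock gene (rows) minus its mean over the 8 libraries, in log2 units, with mutant libraries left of the line and WT libraries right of it. Red is above and blue below the mean. Mutant replicate 1 is at -1.45 for BMAL1 and -1.47 for PER1 but at 1.13 for PER2 and 0.82 for NR1D2, and WT replicate 4 is at 2.0 for BMAL1 and 1.39 for PER1.

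The libraries at the ends of each group are given as a description. Each of the 8 clock genes must have 1 highest and 1 lowest library among the 4 of a group. Several such ends per library thus arise in any data, and their number was not tested. Of the 4 mutant libraries, replicate 1 had the highest PER2, NR1D1 and NR1D2 and the lowest BMAL1, PER1, CRY1 and CRY2. Mutant replicate 2 was the opposite in 5 of these, with the highest BMAL1, PER1 and CRY1 and the lowest PER2 and NR1D2. Among WT libraries, replicate 1 was the lowest for PER1, PER2, CRY1 and NR1D2. WT replicate 4 was the highest for BMAL1 and PER1 and the lowest for CLOCK, CRY2 and NR1D1, and WT replicate 3 was the highest for PER2, CRY2 and NR1D2. Spread within a group was wider in WT libraries for 7 of the 8 clock genes, CRY2 being the exception. The median within-group SD of log2 values was 0.50 in mutant and 0.67 in WT libraries for the clock genes, and 0.33 in mutant and 0.70 in WT libraries over all genes tested.

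Ratios of clock genes within a library do not depend on the scaling of libraries, beyond the pseudocount of 1, and some did not overlap between the groups. The log2 ratio of CLOCK to BMAL1 was 3.18, 1.23, 2.12 and 2.63 in mutant replicates 1 to 4, against 0.67, 0.54, 0.69 and -1.86 in WT replicates 1 to 4. All mutant libraries were above all WT libraries, and the mean difference of 2.28 was 1.66 without WT replicate 4. The ratio of CLOCK to CRY1 was 0.92 to 1.72 in mutant and -1.28 to -0.32 in WT libraries, and it was 1.94 to 2.26 higher on average in mutant libraries with any 1 library left out. These ratios and that of CRY2 to CRY1 were chosen after the values were seen and carry no test. CLOCK was higher and CRY1 lower in every mutant library than in any WT library, so their ratio had to separate the groups.

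The ratios of BMAL1 to its repressors and to the other repressor genes overlapped between the groups. The log2 ratio of BMAL1 to NR1D1 was -2.30, -0.27, -1.09 and -1.23 in mutant replicates 1 to 4, against -0.61, -0.07, -0.69 and 1.94 in WT replicates 1 to 4. That of BMAL1 to NR1D2 was -5.73 to -3.02 in mutant and -4.79 to -1.65 in WT libraries, with WT replicate 3 as the low WT library. On average these ratios were lower in mutant libraries by differences of -1.37 for NR1D1 and -1.61 for NR1D2. The difference for NR1D1 was -0.77 without WT replicate 4, and that for NR1D2 was -2.32 without WT replicate 3 and -1.12 without mutant replicate 1. The ratio of BMAL1 to PER1 averaged -4.67 ± 0.34 in mutant and -4.59 ± 0.97 in WT libraries (SD, n = 4), a difference of -0.08. Without WT replicate 3, where BMAL1 rests on 21 reads, the difference was -0.56. BMAL1 to CRY1 averaged -0.99 ± 0.49 in mutant and -0.81 ± 1.11 in WT libraries (SD, n = 4), a difference of -0.18. Leaving out WT replicate 4 gave 0.32 and leaving out WT replicate 3 gave -0.57. BMAL1 to PER2 averaged -0.41 ± 1.56 in mutant and 0.57 ± 1.23 in WT libraries (SD, n = 4), a difference of -0.98 that was -0.28 without mutant replicate 1.

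**Figure D4:**
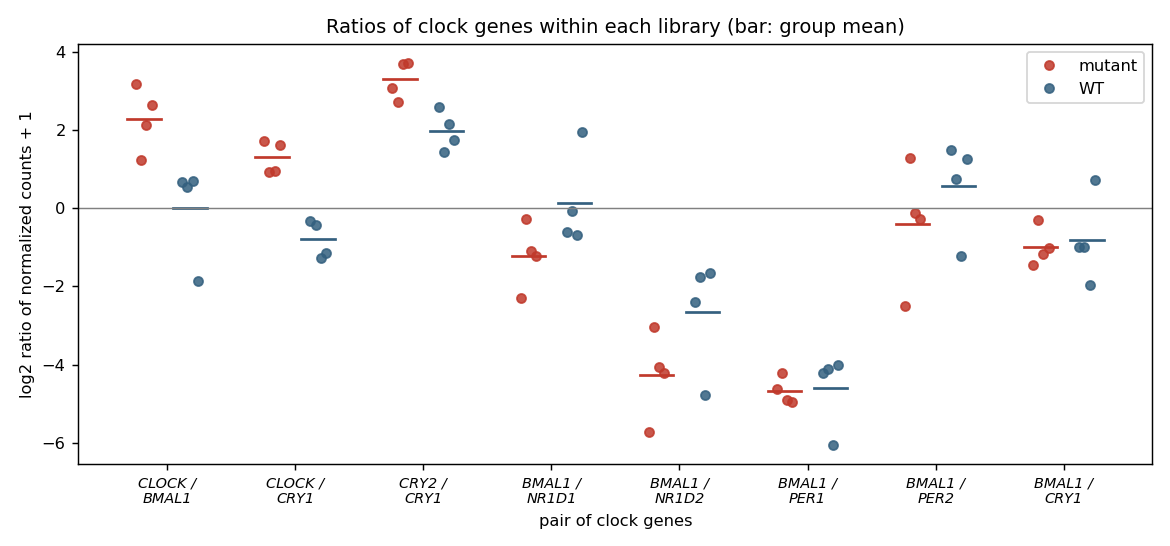
Log2 ratio of the normalized counts + 1 of pairs of clock genes within each library (vertical axis), mutant in red left of WT in blue, with bars at group means. Ratios of CLOCK to BMAL1, CLOCK to CRY1 and CRY2 to CRY1 do not overlap between groups, and those of BMAL1 to NR1D1, NR1D2, PER1, PER2 and CRY1 do.

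Other genes of the clock pathway, which act beside the core loop, included 6 that the authors' deposited table calls, against 4.54% of all genes, and 4 of these are in the output arm. Of 32 measured, 30 passed the filter on low values, 16 with a positive and 14 with a negative difference and a median log2 difference of 0.03, against 0.12 over all genes. None passed limma (adjusted p = 0.172 to 0.997), and 5 had an unadjusted p under 0.05 in the higher and 3 in the lower direction, against 7.06% and 6.8% of all genes. Groups did not overlap for 8 of the 30, or 26.7%, 5 with mutant libraries above and 3 with mutant libraries below WT libraries, against 6.17% and 5.22% of all genes. This list too was chosen with earlier results of these data known, so these shares are a description and not a test. Of the 6 called in the authors' deposited table, TEF, HLF and BTRC were higher and NPAS2, BHLHE40 and NFIL3 lower, and DESeq2 on the recovered reads called 6. BMAL2 and RORB were below the filter, with 0 to 28 reads per library for BMAL2 and 0 to 7 for RORB.

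NPAS2, a paralog of CLOCK that can also pair with BMAL1, was lower in all mutant libraries, where CLOCK itself was higher. It had 172, 152, 190.2 and 191 normalized counts in mutant replicates 1 to 4, against 301, 264, 702 and 419 in WT replicates 1 to 4. The log2 difference was -1.15 ± 0.33 (SE; limma adjusted p = 0.228), and the authors' deposited table gives -1.24 with an adjusted p of 0.0242. DESeq2 called it in 3 of 8 fits with a library left out, and without WT replicates 3 and 4 the limma difference was -0.68. RORA, a nuclear receptor that activates BMAL1 at the sites where REV-ERBs repress it, had a difference of 0.30 ± 0.39 (SE) with overlapping groups. Its value was 0.064 when WT replicate 1 was left out and 0.59 when WT replicate 3 was.

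Output and E-box genes had differences in both directions. The PAR bZIP factors TEF and HLF, which activate genes through D-box elements, were higher in all mutant libraries, and NFIL3, which represses through the same elements, was lower in all. TEF had 889, 485, 639 and 766 normalized counts in mutant replicates 1 to 4, against 272, 289, 339 and 360.3 in WT replicates 1 to 4 (difference 1.11 ± 0.25, SE; limma adjusted p = 0.193). HLF had 848, 408, 409.7 and 416 in mutant replicates 1 to 4, against 262, 264, 169.6 and 241 in WT replicates 1 to 4 (1.09 ± 0.31, SE; limma adjusted p = 0.228). NFIL3 had 327, 272, 192 and 141 in mutant replicates 1 to 4, against 495, 2458, 606 and 1003 in WT replicates 1 to 4 (-2.06 ± 0.49, SE; limma adjusted p = 0.206). The pattern across libraries was one of no overlap in all 3 genes, with WT replicate 2 farthest out for NFIL3.

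BHLHE40, an E-box-binding repressor that is also induced by stress, had 982, 863, 983 and 771 normalized counts in mutant replicates 1 to 4, against 1652, 2566, 1729 and 1901 in WT replicates 1 to 4 (difference -1.11 ± 0.22, SE; limma adjusted p = 0.172). Adjusted p in the authors' deposited table was 0.000481 for BHLHE40, 0.00235 for NFIL3, 0.00392 for TEF and 0.0365 for HLF. DESeq2 called BHLHE40 and NFIL3 lower in all 8 fits with a library left out, TEF higher in 7 and HLF higher in 1. DBP, the third PAR bZIP factor, had 151, 66.1, 75.8 and 108 normalized counts in mutant replicates 1 to 4, against 62.8, 7.77, 0 and 15.8 in WT replicates 1 to 4. Mutant libraries were all above WT libraries, the closest pair being mutant replicate 2 and WT replicate 1, and the 0 of WT replicate 3 allows up to 3 reads, or 14.5 normalized counts. The limma difference of 3.29 ± 1.14 (SE; adjusted p = 0.282) depends on the pseudocount, since reads of DBP were few in WT libraries. Without WT replicate 3 it was 2.19. DESeq2 did not call DBP with all libraries (log2 difference 2.13, adjusted p = 0.1002) and called it higher without WT replicate 1. The repressors CIART and BHLHE41 had overlapping groups, with limma differences of -0.67 ± 0.65 for CIART and 0.73 ± 1.39 for BHLHE41 (SE), against -1.09 for CIART and 0.057 for BHLHE41 in DESeq2. BHLHE41 had 0 reads in WT replicate 3, without which limma gave -0.74, and CIART was at -0.12 without WT replicate 4 and at -1.18 when WT replicate 2 was left out. DBP, CIART and BHLHE41 were added after the values were seen, to complete the output genes.

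Among genes that set the stability of clock proteins and clock cofactors, BTRC and DDB1 separated the groups. BTRC, a subunit of an E3 ligase that targets phosphorylated PER proteins, had 567, 456, 452 and 478 normalized counts in mutant replicates 1 to 4, against 316, 346, 228 and 235 in WT replicates 1 to 4 (difference 0.81 ± 0.23, SE; limma adjusted p = 0.228). Every mutant library was above every WT library, and the authors' deposited table calls BTRC (adjusted p = 0.0445), a call that DESeq2 kept in 2 of 8 fits with a library left out. Its paralog FBXW11 had a difference of 0.31 ± 0.20 (SE), the kinase gene GSK3B one of 0.40 ± 0.27 (SE), and CSNK1E, which encodes a casein kinase that phosphorylates PER, one of -0.40 ± 0.25 (SE), all with overlapping groups. GSK3B was at 0.16 without WT replicate 4, and CSNK1E at -0.23 without WT replicate 2 and -0.25 without mutant replicate 1. Among cofactors, DDB1 was higher in all mutant libraries (0.58 ± 0.20, SE; limma adjusted p = 0.279). EP300, KDM5A and NAMPT had overlapping groups and differences of 0.67 ± 0.30, 0.52 ± 0.32 and -0.42 ± 0.27 (SE). Without WT replicate 3, EP300 was at 0.41 and KDM5A at 0.32, and without WT replicate 4 KDM5A was at 0.79. The 12 other clock genes tested lay between -0.55 (NCOR1) and 1.34 (TIMELESS), with limma adjusted p of 0.577 or more, and the authors' deposited table has -0.90 for NCOR1 and 0.17 for TIMELESS.

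**Figure D5:**
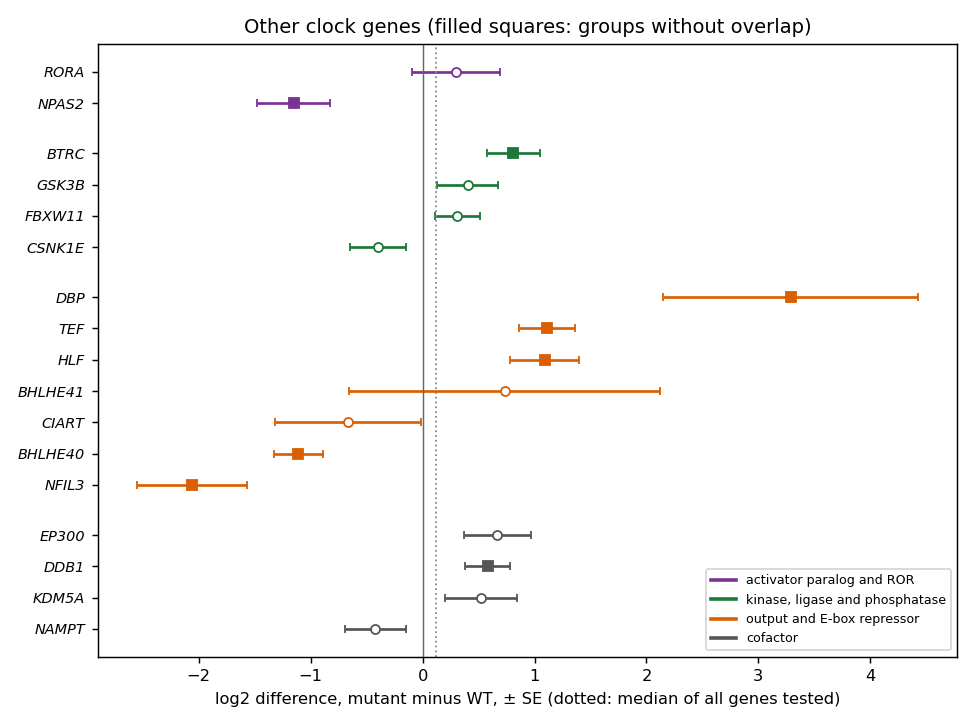
Log2 difference between mutant and WT libraries ± SE (horizontal axis) for 17 other clock genes grouped by role, with filled squares for genes whose groups did not overlap and open circles for the rest, and a dotted line at the median of all genes tested. DBP, TEF and HLF stand at 1.09 to 3.29, and NFIL3, BHLHE40 and NPAS2 at -2.06 to -1.11.

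KCNH2, KLF15, KCNIP2 and TCAP, heart genes that the clock is known to control in mouse, had overlapping groups. KCNH2, the gene named in the genotype labels, codes for the potassium channel subunit behind the rapid delayed rectifier current. It had 798, 1762, 1751 and 1839 normalized counts in mutant replicates 1 to 4, against 989, 559, 1909 and 148 in WT replicates 1 to 4, and what these levels say of the edit is limited because the labels give no allele. Its lowest library was WT replicate 4, which had the highest BMAL1, and its lowest mutant library was replicate 1, which had the lowest BMAL1 (log2 difference 1.21 ± 0.68, SE; limma adjusted p = 0.438). Without WT replicate 4 the limma difference of KCNH2 was 0.52, and the authors' deposited table gives 0.78. KCNH3, which the label of mutant replicate 4 names, had 0 to 3 reads in mutant and 0 to 5 in WT libraries. KCNH2, KLF15, KCNIP2 and TCAP did not pass limma. KCNIP2, a potassium channel accessory subunit, was singled out after its values were seen, with 3897 normalized counts in mutant replicate 1 and 129 to 389 in the other mutant libraries, against 1848 in WT replicate 4 and 147 to 349 in the other WT libraries.

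The genes most like BMAL1 across libraries were not among the clock genes listed. Over the 8 libraries, Pearson's r of log2 values was highest for SKIC2 (0.98), RBM39 (0.97), GNPTG (0.97), SDE2 (0.96) and RPS6KB2 (0.96) among 8894 genes with a mean of at least 100 normalized counts. It was lowest for ITGB1 (-0.98), STARD7 (-0.98), C1orf198 (-0.97), AFG1L (-0.97) and MPP7 (-0.96). For NR1D1 the highest were RMND5A (0.97), NCDN (0.95), REEP1 (0.95), DERL1 (0.95) and WDTC1 (0.94), and the lowest EWSR1 (-0.98), ADARB1 (-0.98), CHD1L (-0.98), AFAP1L1 (-0.96) and ZDHHC1 (-0.96). These values describe 8 libraries that share groups and mitochondrial shares, and they carry no test.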

How the data were processed

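Polyadenylated RNA of 8 pig left ventricles was sequenced, 4 mutant and 4 WT. The authors deposited 1 table with a signal per gene and library, a normalized count made with DESeq2 per the submitters' processing notes, which also name the human build GRCh38. No source used here gives the aligner, counter or annotation, and no coordinates are printed. Per the file headers, the same deposited table holds a mean, a log2 fold change with its standard error, a Wald score, and p-values. Every value in the 8 columns was a whole multiple of 1 read (100% within 1e-06 reads), which recovered the reads. Of 14720 rows, 2 name no gene (0.392% to 0.853% of reads) and were left out, and 14504 of the other 14718 matched a pig symbol. Genes with at least 10 normalized counts in at least 4 libraries (11660) were tested as log2(normalized count + 1) with limma 3.58.1 (trended, robust) in R 4.3.3, and called at a Benjamini-Hochberg adjusted p under 0.05. Fold changes are on that scale, where the pseudocount shrinks those of low genes, while a library near 0 reads can make them larger than in DESeq2, as for DBP. The tests were checked on simulated counts with the same spread in both groups. That check does not cover the wider spread of the WT libraries seen here. Alternatives included edgeR 4.0.16 (quasi-likelihood) and DESeq2 1.42.0 on the recovered reads, which called 0 and 582 genes, other scalings, pseudocounts and filters, and leaving out each library. Intervals cover counting error only.

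Named genes are all clock genes, the 4 with the smallest p in each subgroup of a list of other clock genes, KCNH2 and KCNH3, and the 5 most and least like BMAL1 and NR1D1. Some genes of these lists are not reported here. The members and lists were chosen with earlier results of these data known.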

Additional observations from a re-analysis of the deposited data

Results flagged for a closer look

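In groups of 4 libraries, 1 library stood far from the other 3 in 7 of 64 groups examined (Dixon's ratio above 0.829). Chance gives this in about 1 in 20 independent groups of normally distributed values. These groups share libraries and genes, and the counts were not log-transformed. Some ratios, that of CLOCK to BMAL1 included, were chosen after the values were seen. The flags are thus a description, and an excess over chance cannot be read from them. Mutant replicate 1 was the high library for PER2 (265 normalized counts) and HLF (848) and the low one for CSNK1E (665) within the mutant group. Mutant replicate 2 was the low library for EP300 (1049) within the mutant group. WT replicate 1 was the low library for FBXW11 (508) within the WT group. The log2 ratio of BMAL1 to PER1 was -6.04 in WT replicate 3, where BMAL1 rests on 21 reads, and -4.21 to -4.02 in the other WT libraries. The log2 ratio of CLOCK to BMAL1 was -1.86 in WT replicate 4 and 0.54 to 0.69 in the other WT libraries.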

How the results depend on the processing

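The limma count of called genes, 0, was 0 with edgeR, TMM rescaling, scaling to nuclear reads, other pseudocounts and filters and a plain prior. It was 3 with quantile normalization, 92 with array quality weights, 0 to 3 with 1 library left out, and 12 with neither WT replicate 3 nor 4. DESeq2 called 582 genes. Leaving out WT replicates 1 to 4 in turn it called 1027, 705, 588 and 510, and leaving out mutant replicates 1 to 4 it called 333, 370, 173 and 128. It called 705 without WT replicates 3 and 4 and 593 without mitochondrially encoded genes. The count of clock genes called, 0 in limma and under every limma alternative, was 1 in DESeq2, 0 to 2 with 1 library left out, 1 without WT replicates 3 and 4 and 1 without mitochondrially encoded genes. That of other clock genes was 1 with array quality weights (NFIL3) and 6 in DESeq2, 7, 5, 4 and 4 leaving out WT replicates 1 to 4 and 3, 3, 3 and 2 leaving out mutant replicates 1 to 4, 3 without WT replicates 3 and 4 and 6 without mitochondrially encoded genes. DESeq2 with libraries or genes left out was added after the data were seen.

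Directions turned for 3 clock genes and 2 other genes, none of them called with all libraries. PER2 was -0.76 to 0.043 in limma with 1 library left out (0.043 without WT replicate 3, 0.019 without mutant replicate 2) and 0.54 without WT replicates 3 and 4, in limma and in DESeq2 alike. NR1D1 was -0.094 with array quality weights and, without WT replicates 3 and 4, -0.11 in limma and -0.13 in DESeq2, and -0.019 in DESeq2 without WT replicate 4. NR1D2 in DESeq2 was -0.053, -0.022 and -0.064 without WT replicate 1, WT replicate 2 and mutant replicate 1. Without WT replicates 3 and 4 NR1D2 was 1.22 in DESeq2 and called (adjusted p = 0.0175), CLOCK was 0.69 in limma, and NPAS2 was -0.68 in limma. With array quality weights PER1 was -0.54 and CRY2 0.70. Alternatives for BHLHE41 and CIART were examined after the values were seen. BHLHE41 was -0.51 with quantile normalization, -0.66 with array quality weights, -0.74 to 1.35 in limma with 1 library left out (-0.74 without WT replicate 3), and -0.55 in limma and -0.14 in DESeq2 without WT replicates 3 and 4. In DESeq2 it was -0.010 without WT replicate 2, -0.32 without WT replicate 3 and -0.95 without mutant replicate 1. CIART was 0.37 in limma and 0.31 in DESeq2 without WT replicates 3 and 4. The causes were not tested. Of 777 re-estimated differences of 26 genes, 701 kept their direction and their side of the threshold. The median difference of all genes, 0.12 in limma, was -0.01 in edgeR and -0.03 in DESeq2. Mean differences of the ratios moved by less than 1 pooled within-group SD in every setting tried, although that of BMAL1 to CRY1 was 0.32 without WT replicate 4, against -0.18 with all libraries. No paired analysis was possible because the labels number the pigs separately and no number is shared between the groups.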
